A study of Mus musculus with 1778 samples.

Results

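Fos/Egr1-high cells are single cells of 4 and 6 somite mouse embryos that carried high reads of the immediate early genes Fos and Egr1 at the same time. They were taken from the cells whose titles bear the 1 plate number that holds many cells of both stages, called the shared plate number here. Members were chosen by their measured Fos and Egr1 levels: a cell was a member when it had at least 100 CPM of Fos and at least 50 CPM of Egr1, where CPM is reads of a gene per 1000000 reads of the cell outside the ERCC spike-ins and the 45S pre-ribosomal RNA Rn45s. By this rule 87 cells were members, of 1778 cells in the whole series. At 4 somites they were 36 cells, or 28.1% of the kept cells of that stage and plate number (95% exact Clopper-Pearson interval 20.5 to 36.8%), and at 6 somites 51 cells, or 28.3% (21.9 to 35.5%). They were set against the Fos/Egr1-low cells of the same stage and plate number, which had under 20 CPM of both genes and numbered 58 at 4 somites and 82 at 6 somites. The remaining 34 and 47 cells fell in neither class and were not compared.

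The series profiled cells of the cranial neural crest, labelled in C57BL/6 mice by Wnt1::Cre and a Rosa26TdTomato reporter, by Smart-Seq2, which sequences full-length transcripts of single cells sorted into wells. All cells described here share that genotype. The Cre is driven by Wnt1, which is active in the dorsal neural tube, so the reporter also marks neural plate border and neural tube cells. No embryo, litter or sex is named for any cell, so each stage was treated as 1 sample, cells were not used as replicates, and the values below are descriptions without p-values. Intervals are exact for counts of reads or of cells. The reads carried no molecular identifiers, so intervals on reads leave out amplification as well as the spread between cells. No interval covers the spread between embryos.

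Immediate early genes are transcribed within minutes of a stimulus from factors already present in the cell, such as SRF with its ERK-activated partners and CREB, and without new protein synthesis. Their products are largely transcription factors (the AP-1 subunits of the Fos and Jun families, the Egr zinc-finger proteins and the Nr4a nuclear receptors) and feedback inhibitors such as the phosphatase Dusp1 and the growth-arrest genes of the Btg family. Growth factors acting through ERK, mechanical strain, and the dissociation of tissue into single cells are all known inducers.

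Both classes were deeply sequenced. At 4 somites the median was 503808 reads per cell outside spike-ins and Rn45s in Fos/Egr1-high cells and 606352 in Fos/Egr1-low cells, and at 6 somites 481242 and 441612. The medians of detected genes were 7404.5 in Fos/Egr1-high and 6578 in Fos/Egr1-low cells at 4 somites, and 6326 and 5936 at 6 somites. Rn45s took a median of 46.2% of reads in Fos/Egr1-high and 47.8% in Fos/Egr1-low cells at 4 somites, and 58.3% and 60.97% at 6 somites. Spike-ins took 0.295% in Fos/Egr1-high and 0.315% in Fos/Egr1-low cells at 4 somites, and 2.62% and 2.92% at 6 somites. The members lay in 9 of 9 well columns and 15 of 16 well rows that held 4 somite cells. They lay in 11 of 12 columns and 15 of 16 rows that held 6 somite cells. The stages held separate columns, 13 to 21 at 4 somites and 1 to 12 at 6 somites. Members were uneven over columns. Column 15 held 8 members among 16 cells and column 14 held 1 among 12 at 4 somites. At 6 somites column 10 held 7 among 15 and column 4 held 0 among 16. This unevenness was not tested.

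Fos and Egr1, which chose the members, are described here with no test. Fos encodes the founding AP-1 subunit and lies at chr12:85473890-85477273 on the plus strand (GRCm38, GENCODE vM21). At 4 somites the 36 Fos/Egr1-high cells held 210, 1032 and 3963 CPM of Fos (lowest, median and highest), from 95 to 2141 reads a cell. None of the 58 Fos/Egr1-low cells had a Fos read. At 6 somites the members held 114.1, 808.2 and 5361 CPM, against at most 9.12 CPM in the Fos/Egr1-low cells. Egr1, an immediate early zinc-finger factor, held 55.7, 203.96 and 853.7 CPM in members at 4 somites and at most 5.86 CPM in Fos/Egr1-low cells. At 6 somites its values were 54.4, 189.1 and 1405 CPM in members and at most 11.3 CPM in Fos/Egr1-low cells.

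Both thresholds divided a continuous range. Over all kept cells the Fos values nearest the threshold were 93.01 and 90.2 CPM below it and 129.8 and 131.4 CPM above it at 4 somites, and 95.1 and 94.9 CPM below and 108.2 and 114.1 CPM above at 6 somites. At 4 somites the members lowest in Fos had 210, 227.3 and 293.8 CPM, and the highest Fos among the 3 cells that passed for Egr1 alone was 24.96 CPM. The members lowest in Egr1 had 55.7, 57.8 and 60.5 CPM, while the highest of the 15 cells that passed for Fos alone had 39.5, 37.6 and 34.4 CPM. At 6 somites the lowest Fos values of members were 114.1, 137.9 and 274.8 CPM and the highest of the 10 Egr1-only cells were 77.5, 59.8 and 50.9 CPM. For Egr1 these were 54.4, 55.6 and 56.1 CPM inside and 46.7, 43.9 and 40.2 CPM outside, where 21 cells passed for Fos alone.

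**Figure D1:**
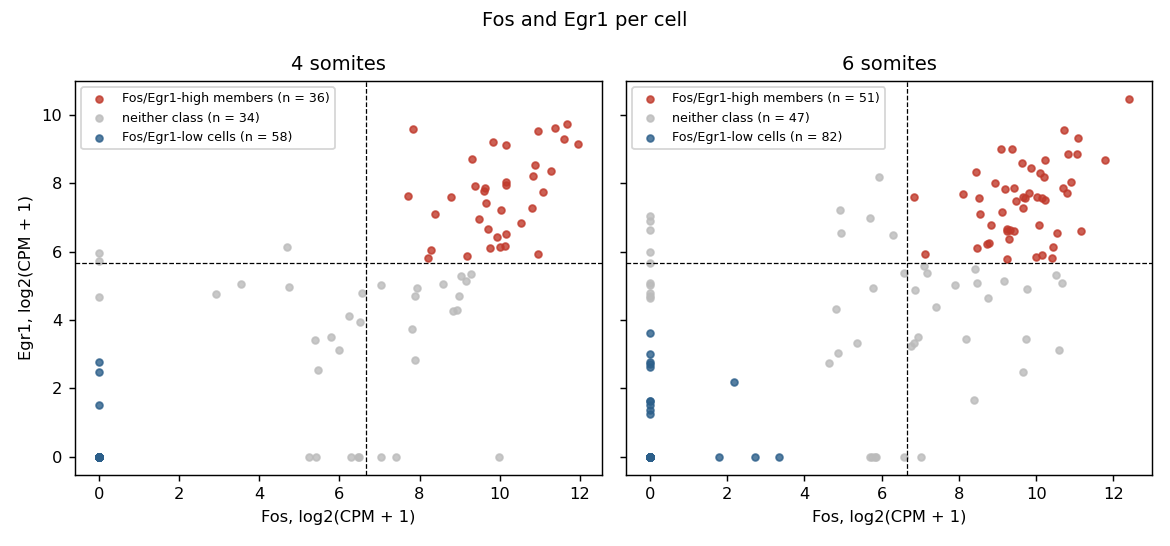
Fos (horizontal axis) and Egr1 (vertical axis) in each kept cell of the shared plate number, as log2(CPM + 1), with 4 somites on the left and 6 somites on the right. Red points are Fos/Egr1-high members (n = 36 and 51), grey points cells in neither class (n = 34 and 47) and blue points Fos/Egr1-low cells (n = 58 and 82). Dashed lines mark 100 CPM of Fos and 50 CPM of Egr1. Members reach from just above the Egr1 line to 853.7 CPM at 4 somites and 1405 CPM at 6 somites.

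For other genes, reads were summed over the cells of a class, and the log2 ratio of CPM (members over Fos/Egr1-low cells) was taken for genes with a mean of at least 5 CPM over both classes. Of 9646 such genes at 4 somites, 4.39% were at least 2-fold higher in members and 3.47% at least 2-fold lower. Of 9813 at 6 somites, 6.09% were at least 2-fold higher and 4.06% at least 2-fold lower. The higher genes thus made up 55.8% and 60.04% of all genes past 2-fold, but 73.5% and 81.1% with Rn45s kept in the totals, so the balance of directions depends on that choice. The median gene stood at a log2 ratio of −0.015 at 4 somites and −0.0010 at 6 somites. Counts of list genes below are to be read beside these medians and the shares of 4.39%, 3.47%, 6.09% and 4.06% above. Of 9334 genes measured at both stages, 1.08% were at least 2-fold higher in each and 37 at least 2-fold lower in each (0.396%). Among those 9334 genes, the shared higher genes made up 27.98% of the ones higher at 4 somites and 20.998% of the ones higher at 6 somites, while the shared lower genes made up 12.8% and 12.7% of the lower ones. The cells of the 2 stages are different cells, so the 2 comparisons share no controls.

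Promoters of 4 genes higher in both stages are shown because the 250 bases before their RefSeq start (GRCm38.p6) hold a binding motif of SRF or CREB, the factors known to act on immediate early promoters. Each is given 5′ to 3′ on the gene's own strand, with the matched motif in capitals.
Egr2, chr10:67537619-67537868, plus strand, with a CArG box, the SRF binding motif: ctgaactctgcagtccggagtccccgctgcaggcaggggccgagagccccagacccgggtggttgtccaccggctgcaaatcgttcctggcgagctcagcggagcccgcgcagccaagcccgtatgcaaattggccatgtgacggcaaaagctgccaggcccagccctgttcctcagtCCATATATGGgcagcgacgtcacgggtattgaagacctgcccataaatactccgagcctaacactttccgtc
Btg2, chr1:134079156-134079405, minus strand, with a full cyclic AMP response element (CRE), the CREB binding motif: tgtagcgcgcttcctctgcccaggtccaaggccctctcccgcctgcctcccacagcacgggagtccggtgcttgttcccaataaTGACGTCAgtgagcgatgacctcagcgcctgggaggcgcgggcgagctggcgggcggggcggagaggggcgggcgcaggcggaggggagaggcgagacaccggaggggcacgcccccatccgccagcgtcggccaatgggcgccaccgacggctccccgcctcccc
Dusp1, chr17:26508473-26508722, minus strand, with a CRE: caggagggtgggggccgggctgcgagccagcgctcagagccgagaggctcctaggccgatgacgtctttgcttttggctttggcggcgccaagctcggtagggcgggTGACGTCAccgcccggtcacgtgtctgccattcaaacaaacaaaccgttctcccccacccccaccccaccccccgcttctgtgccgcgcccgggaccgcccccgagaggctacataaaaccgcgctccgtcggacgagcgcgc
Ccnl1, chr3:65958250-65958499, minus strand, with a CRE: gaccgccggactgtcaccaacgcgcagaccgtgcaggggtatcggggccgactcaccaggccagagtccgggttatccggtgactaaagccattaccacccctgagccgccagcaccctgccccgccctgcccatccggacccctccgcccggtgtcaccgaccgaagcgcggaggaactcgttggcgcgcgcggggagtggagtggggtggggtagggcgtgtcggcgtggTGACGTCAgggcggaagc

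A promoter was found for 77 of the genes higher in both stages, and 4 motifs were searched on both strands, chosen after the gene values were known. A gene counted when any of its promoters held the motif. The CRE, TGACGTCA, stood in 6 of the 77 (7.79%), namely Btg2, Ccnl1, Dusp1, Gas5, Snhg15 and Zfp367, against 1.77% of all 27025 genes with a promoter. The CArG box stood in 2 of 77 (2.597%, Egr2 and Rnf128), against 1.62% of all genes with a promoter. The AP-1 motif TGANTCA stood in 6 of 77 (7.79%), against 7.82% of all, and the heat shock element GAANNTTC in 3 of 77 (3.90%), among them Hspa1a, against 7.73% of all. The shares of all genes cover every gene with a promoter, including genes below the minimum level in these cells. They are therefore not shares of the measured genes, from which the 77 came, and the 2 kinds of share are not matched. A match is a description of these letters and not of binding, and the shares were not tested.

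The AP-1 subunits stood higher in members. Leaving out Fos, which the rule fixed, 5 of 6 measured AP-1 genes were at least 2-fold higher at 4 somites and 5 of 6 at 6 somites, and none was lower. Fosb, Jun, Junb and Jund were so at both stages. The median log2 ratio of the list without Fos was 4.76 at 4 somites and 2.05 at 6 somites.

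Jun, the main dimer partner of Fos (chr4:95049034-95052222, minus strand), held 0, 174.1 and 1360 CPM per Fos/Egr1-high cell at 4 somites (lowest, median and highest), against 0, 0 and 53.03 CPM in Fos/Egr1-low cells. Jun values at 6 somites were 0, 167.5 and 752.03 CPM per member and 0, 0 and 1107 CPM per Fos/Egr1-low cell. The cell distributions overlap at both stages, and at 6 somites the highest Jun cell was Fos/Egr1-low. Summed, Jun came to 258.8 CPM in members (interval 251.6 to 266.2) and 5.45 CPM in Fos/Egr1-low cells (4.70 to 6.30) at 4 somites, a log2 ratio of 5.57. At 6 somites it came to 212.05 and 29.2 CPM, a log2 ratio of 2.86, which was 3.72 without the highest cell of each class.

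Fosb, a Fos relative induced somewhat later (chr7:19302696-19310051, minus strand), held 0, 24.9 and 301.4 CPM per member at 4 somites, against 0, 0 and 7.87 CPM in Fos/Egr1-low cells, and summed to 41.7 CPM in members and 0.12 CPM in Fos/Egr1-low cells. Its 6 somite sums were 27.9 CPM in members and 0.43 CPM in Fos/Egr1-low cells. The Fosb log2 ratios were 8.31 and 5.97, and without the highest cell of each class 9.75 and 8.04. In cells thinned to 50000 reads, a Fosb read was found in 61.1% of members at 4 somites and in 47.1% at 6 somites, against 0% and 2.44% of Fos/Egr1-low cells, so part of the members had no Fosb read at that depth.

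Junb, a Jun relative that restrains Jun, summed to 41.3 CPM in members and 2.67 CPM in Fos/Egr1-low cells at 4 somites, and to 32.7 and 6.01 CPM at 6 somites, with log2 ratios of 3.95 and 2.44. The Junb log2 ratios were 1.56 and 1.33 when cells with Epcam, Kdr, Pecam1 or Foxa2 were left out. Jund, the Jun family member that is present in resting cells, was detected in both classes, with sums of 77.3 CPM in members and 15.8 CPM in Fos/Egr1-low cells at 4 somites and 64.995 and 20.6 CPM at 6 somites (log2 ratios 2.29 and 1.66). Mafk, a small Maf protein without an activation domain, stood at log2 ratios of 0.72 and 1.25.

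Atf3, a stress-induced ATF/CREB family member that dimerises with Jun, had opposite signs at the 2 stages, which were not tested against each other. At 4 somites it summed to 26.2 CPM in members and to 0 reads in Fos/Egr1-low cells, a log2 ratio of at least 8.22 against a floor of 3 reads over the class. Atf3 summed at 6 somites to 7.94 CPM in members and 15.3 CPM in Fos/Egr1-low cells, a log2 ratio of −0.95. A single Fos/Egr1-low cell held 971 CPM of Atf3, and without the highest cell of each class the ratio was 0.98. The share of cells with an Atf3 read at 50000 reads was 30.6% of members and 0% of Fos/Egr1-low cells at 4 somites, and 17.6% and 4.88% at 6 somites.

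The Egr and Nr4a factors were also higher. Besides Egr1, all of the 4 others measured at 4 somites and all of the 5 others at 6 somites were at least 2-fold higher in members, and the median log2 ratio of the list without Egr1 was 4.94 at 4 somites and 3.59 at 6 somites. Without the highest cell of each class, a choice made per gene, that median was 5.76 at 4 somites. It was 5.55 at 6 somites over 4 genes in place of 5, so the medians there cover different gene sets. Egr2 (Krox20), which also patterns hindbrain rhombomeres, held 0, 25.8 and 418.8 CPM per member at 4 somites and 0, 0 and 70.04 CPM per Fos/Egr1-low cell. At 6 somites Egr2 held 0, 1.75 and 684.5 CPM per member and 0, 0 and 39.1 CPM per Fos/Egr1-low cell. The Egr2 sums were 75.1 CPM in members and 1.44 CPM in Fos/Egr1-low cells at 4 somites and 74.1 and 0.84 CPM at 6 somites (log2 ratios 5.69 and 6.44), and without the highest cell of each class the ratios were 7.30 and 7.01. An Egr2 read was found at 50000 reads in 43.1% of members at 6 somites.

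Egr4 summed to 24.6 CPM in members and 0.26 CPM in Fos/Egr1-low cells at 4 somites, and to 21.3 CPM in members and 0 reads in Fos/Egr1-low cells at 6 somites (log2 ratios 6.47 and at least 8.04), and the 4 somite ratio was 7.52 without the highest cell of each class. Nr4a1 (Nur77), an orphan nuclear receptor at chr15:101254269-101274795 on the plus strand, held 0, 73.7 and 660.8 CPM per member at 4 somites, against 0, 0 and 59.97 CPM in Fos/Egr1-low cells. At 6 somites these were 0, 20.1 and 897 CPM in members and 0, 0 and 236.5 CPM in Fos/Egr1-low cells. The Nr4a1 sums of 130.9 CPM in members and 7.15 CPM in Fos/Egr1-low cells at 4 somites, and of 89.2 CPM in members and 7.39 CPM in Fos/Egr1-low cells at 6 somites, gave log2 ratios of 4.19 and 3.59. Nab1, a corepressor that binds Egr proteins, was higher by log2 ratios of 1.22 and 1.36. It stood at −0.70 at 6 somites under the plate number with the most 6 somite cells, opposite in sign. Nr4a2 was measured above the minimum at 6 somites alone, at a log2 ratio of 1.22. Egr3 stayed below it at both stages, with 3.42 and 0.33 CPM in members and 0 reads in Fos/Egr1-low cells.

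**Figure D2:**
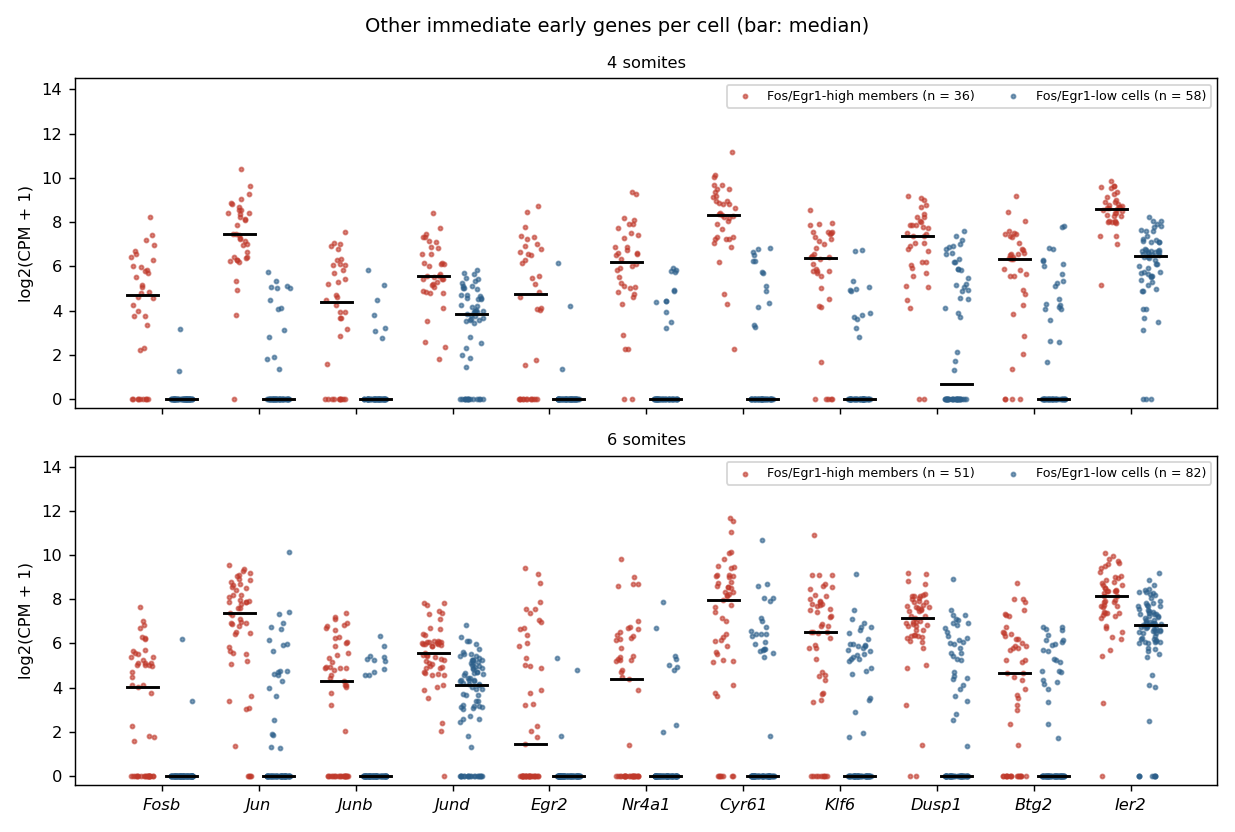
Levels of 11 immediate early genes other than Fos and Egr1 in each cell, as log2(CPM + 1), at 4 somites (top) and 6 somites (bottom). For each gene Fos/Egr1-high members (red) stand left of Fos/Egr1-low cells (blue), and black bars are medians over cells. Medians of Jun, Cyr61 and Dusp1 lie well above 0 in members, at 174.1, 323.3 and 164.5 CPM at 4 somites, and at or near 0 in Fos/Egr1-low cells, while Jund and Ier2 are detected in both classes.

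The wider immediate early list went the same way but less completely. At 4 somites 14 of 24 measured genes were at least 2-fold higher and none was lower, and the median log2 ratio was 1.37. At 6 somites 10 of 26 were higher and 1, the growth-arrest and stress gene Gadd45g, was lower, with a median of 0.80. The 9 that were higher at both stages were Ier2, Btg1, Btg2, Klf2, Klf6, Arc, Cyr61, Ctgf and Tob1.

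Cyr61 and Ctgf, secreted matrix proteins that are targets of SRF and YAP, were both among them. Cyr61 held 3.73, 323.3 and 2297 CPM per member at 4 somites, against 0, 0 and 113.4 CPM in Fos/Egr1-low cells, so all 36 members had Cyr61 reads while the ranges still overlap. Cyr61 values at 6 somites were 0, 248.7 and 3266 CPM per member and 0, 0 and 1618 CPM per Fos/Egr1-low cell. The Cyr61 sums were 456.4 CPM in members and 13.6 CPM in Fos/Egr1-low cells at 4 somites, and 472.1 and 55.4 CPM at 6 somites (log2 ratios 5.07 and 3.09). Ctgf gave log2 ratios of 2.33 and 2.56.

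Klf6, Klf2 and Klf4 are zinc-finger factors of the Krüppel-like family. Klf6 summed to 104.2 CPM in members and 7.12 CPM in Fos/Egr1-low cells at 4 somites, and to 167.7 and 27.2 CPM at 6 somites (log2 ratios 3.87 and 2.62). Klf2 summed to 24.6 CPM in members and 0.23 CPM in Fos/Egr1-low cells at 4 somites, and to 11.1 and 2.65 CPM at 6 somites (log2 ratios 6.63 and 2.06). Klf4 was sparser, at 13.9 CPM in members and 0.47 CPM in Fos/Egr1-low cells at 4 somites and 2.93 and 0.14 CPM at 6 somites, and a Klf4 read was found at 50000 reads in 30.6% and 9.80% of members and in 0% of Fos/Egr1-low cells at each stage.

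Ier2, a short-lived nuclear protein, was detected in both classes. Ier2 held 35.1, 391.3 and 918 CPM per member at 4 somites and 0, 88.3 and 301.1 CPM per Fos/Egr1-low cell, and summed to 435.8 CPM in members and 93.4 CPM in Fos/Egr1-low cells (log2 ratio 2.22). Ier2 sums at 6 somites were 354.6 CPM in members and 140.9 CPM in Fos/Egr1-low cells (1.33). Btg2, an antiproliferative gene that is also a p53 target, summed to 101.2 and 22.95 CPM at 4 somites and to 64.5 and 15.4 CPM at 6 somites, in members and in Fos/Egr1-low cells (log2 ratios 2.14 and 2.06). Myc, a delayed member of the response, stood at log2 ratios of 0.83 and 0.48, and Mcl1, a survival factor of the BCL2 family, at 0.10 and 0.42. Zfp36, which destabilises mRNAs of the response, was sparse, at 2.30 and 2.28 CPM in members and 0.32 and 0.97 CPM in Fos/Egr1-low cells.

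A rule that asked, in both stages, for at least 2-fold, at least 50 CPM in the higher class and a read at 50000 reads in at least 50% of its cells singled out the genes with broad differences. It left 20 higher genes and 0 lower genes. After Fos and Egr1 these were, in order of the smaller of the 2 ratios, Nr4a1, Cyr61, Jun, Klf6, Dusp1, Btg2, Zfp367, Jund, Mir17hg, Dnajb9, Ier2, Tiparp, Erdr1, Gas5, Kmt5b, Id1, Ccnl1 and Btg1. Not all of them are classical immediate early genes. Zfp367, a zinc-finger gene, summed to 50.8 CPM in members and 14.98 CPM in Fos/Egr1-low cells at 4 somites and to 52.8 and 11.4 CPM at 6 somites (log2 ratios 1.76 and 2.21). Mir17hg, the host transcript of an oncogenic microRNA cluster, summed to 101.5 CPM in members and 29.4 CPM in Fos/Egr1-low cells at 4 somites, and to 80.02 and 26.9 CPM at 6 somites (1.79 and 1.57). Dnajb9, an endoplasmic reticulum cochaperone, gave 74.5 CPM in members and 25.8 CPM in Fos/Egr1-low cells at 4 somites, and 69.96 and 17.9 CPM at 6 somites (1.53 and 1.962), and at 4 somites its log2 ratio was 0.41 without cells with Epcam, Kdr, Pecam1 or Foxa2.

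Feedback inhibitors of ERK signalling were partly higher. At 4 somites 5 of 11 measured genes of the FGF and ERK list were at least 2-fold higher (Dusp1, Dusp6, Spry2, Spry4 and Etv5) and at 6 somites 2 of 12 (Dusp1 and Spry4), none was lower, and the medians were 0.87 and 0.52. Dusp1, a nuclear phosphatase that inactivates MAP kinases and is itself an immediate early gene, held 0, 164.5 and 571.9 CPM per member at 4 somites, against 0, 0.76 and 193.6 CPM in Fos/Egr1-low cells. At 6 somites it held 0, 141.2 and 576.2 CPM per member and 0, 0 and 483.2 CPM per Fos/Egr1-low cell. Dusp1 sums of 192.2 CPM in members and 31.6 CPM in Fos/Egr1-low cells, and of 171.04 and 32.996 CPM, gave log2 ratios of 2.604 and 2.37. Within cells with Xist reads at 6 somites, the Dusp1 ratio was 0.91. Under the plate number with the most 6 somite cells, Dusp1 stood at 2.41 and Spry4 at 0.13.

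Dusp6, the ERK-specific cytoplasmic phosphatase and a standard readout of FGF signalling, differed between the stages in size. It summed to 114.4 CPM in members and 27.4 CPM in Fos/Egr1-low cells at 4 somites (log2 ratio 2.06), but to 128.1 and 118.1 CPM at 6 somites (0.12). The members' Dusp6 sums at the 2 stages lie close together, while those of the Fos/Egr1-low cells lie apart. Etv5, an ETS factor downstream of FGF, gave 49.6 CPM in members and 17.2 CPM in Fos/Egr1-low cells at 4 somites, and 60.8 and 82.6 CPM at 6 somites. The difference between stages was not tested.

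Heat shock genes as a group differed little, with 2 of 14 at least 2-fold higher at 4 somites, 1 of 14 at 6 somites, 0 lower, and medians of 0.17 and 0.12. Hspa1a, the inducible HSP70 gene, was the 1 gene of the list past 2-fold at both stages. Hspa1a had reads at 50000 reads in 30.6% of members and 0% of Fos/Egr1-low cells at 4 somites, and in 33.3% and 4.88% at 6 somites. Hspa1a summed to 51.8 CPM in members and to 0 reads in Fos/Egr1-low cells at 4 somites, and to 69.96 and 10.6 CPM at 6 somites (log2 ratios of at least 9.20 and 2.72), and the 6 somite ratio was 4.10 without the highest cell of each class. Members with the highest Hspa1a held 442.1 CPM at 4 somites and 715.7 CPM at 6 somites, while its median over members was 0 at both stages. Its near-identical copy Hspa1b had at most 0.21 CPM in any class, and the labels do not say how reads that map to both were counted. Dnajb1, the cochaperone induced with it, gave log2 ratios of 1.11 and 0.58, and the constitutive Hspa8 0.12 and 0.10.

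Pluripotency genes as a group stood near the median gene at 4 somites and somewhat above it at 6 somites. Of 10 measured genes of the core list, 2 were at least 2-fold higher at 4 somites and 1 at 6 somites, none was lower, and the median log2 ratio was −0.08 and 0.49. The higher genes were Klf2 at both stages and Klf4 at 4 somites, both of which also stand in the immediate early list. The core median depended on the cells used. Within cells with Y-linked reads it was 0.32 at 4 somites and 0.54 at 6 somites. Within cells with Xist reads it was −0.03 at 4 somites and −0.04 at 6 somites, where 4 of 12 genes were at least 2-fold higher and 3 lower. Dppa2, Dppa3, Dppa4, Prdm14 and Nr5a2 had 0 reads in both classes at both stages.

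Pou5f1 (Oct4), the central pluripotency factor, which is known to persist in the anterior neural plate and early crest (chr17:35506018-35510772, plus strand), held 0, 35.8 and 143.1 CPM per member at 4 somites, against 0, 18.5 and 172.1 CPM in Fos/Egr1-low cells. Pou5f1 values at 6 somites were 0, 10.1 and 117.4 CPM per member and 0, 0 and 285.6 CPM per Fos/Egr1-low cell. The ranges overlap almost fully. Pou5f1 sums were 43.6 CPM in members (40.7 to 46.7) and 33.2 CPM in Fos/Egr1-low cells (31.2 to 35.1) at 4 somites, and 18 and 19.4 CPM at 6 somites, with log2 ratios of 0.40 and −0.11. Over 18 alternative settings the Pou5f1 ratio ran from 0.08 to 0.80 at 4 somites and from −0.98 to 1.07 at 6 somites. At least 20 CPM of Pou5f1 was present in 24 of 36 members and 26 of 58 Fos/Egr1-low cells at 4 somites (66.7% and 44.8%), and in 17 of 51 members and 24 of 82 Fos/Egr1-low cells at 6 somites (33.3% and 29.3%). Seen from the other side, members were 24 of 65 cells with that much Pou5f1 and 12 of 63 cells with less at 4 somites (36.9% and 19.05%, with intervals of 25.3 to 49.8% and 10.2 to 30.9%), and 31.5% of cells with that much and 26.98% of cells with less at 6 somites.

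Nanog, a partner of Pou5f1 in pluripotent cells (chr6:122707489-122714633, plus strand), summed to 13.9 CPM in members and 18 CPM in Fos/Egr1-low cells at 4 somites and to 12.95 and 7.23 CPM at 6 somites (log2 ratios −0.37 and 0.84), and its direction at 4 somites turned to 0.38 in cells with Y-linked reads. Sox2, shared by pluripotent and neural cells, gave 68.3 CPM in members and 50.9 CPM in Fos/Egr1-low cells at 4 somites, and 43.04 and 30.99 CPM at 6 somites (0.42 and 0.47). Sall4, a zinc-finger factor of pluripotent and early embryonic cells, gave 345.8 CPM in members and 465.7 CPM in Fos/Egr1-low cells at 4 somites, and 356.7 and 302.8 CPM at 6 somites (−0.43 and 0.24). Pim2, a survival kinase, gave 464.4 CPM in members and 524.8 CPM in Fos/Egr1-low cells at 4 somites, and 394.04 and 279.04 CPM at 6 somites (−0.18 and 0.50). Of 10 and 9 measured primed epiblast genes, 0 passed 2-fold in either direction at either stage.

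Apoptosis genes likewise showed no common direction. Of 7 measured BCL2 family promoters of apoptosis, 1 was at least 2-fold higher at 4 somites and 0 of 7 at 6 somites, and of 3 measured BCL2 family inhibitors 0 at either stage. Of all measured genes, 4.39% and 6.09% were at least 2-fold higher at 4 and 6 somites, and 3.47% and 4.06% at least 2-fold lower. Among caspases, death receptors and apoptosome genes 1 of 21 was higher and 1 lower at 4 somites, and 1 of 22 higher and 1 lower at 6 somites. Ripk1, a kinase downstream of TNF receptors, was the higher one at both stages (log2 ratios 1.001 and 1.59), and stood at 0.02 at 6 somites under the plate number with the most 6 somite cells. Fadd, the death receptor adaptor, was the lower one at 4 somites (−1.08), and Tnfrsf10b at 6 somites. The effector Bax summed to 83.6 CPM in members and 87.3 CPM in Fos/Egr1-low cells at 4 somites and to 76.8 CPM in members and 96.98 CPM in Fos/Egr1-low cells at 6 somites (log2 ratios −0.06 and −0.34).

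Pmaip1 (Noxa), a BH3-only protein that neutralises Mcl1 and is induced by p53 and by stress, was the 1 BCL2 family gene past 2-fold at 4 somites. It held 0, 122.8 and 832.5 CPM per member at 4 somites, against 0, 61.4 and 634.7 CPM in Fos/Egr1-low cells, and 0, 89.8 and 640.95 CPM per member against 0, 29.8 and 800.6 CPM per Fos/Egr1-low cell at 6 somites. Pmaip1 sums were 257.9 CPM in members (250.7 to 265.3) and 85.7 CPM in Fos/Egr1-low cells (82.6 to 88.8) at 4 somites, and 139.3 and 94.7 CPM at 6 somites, with log2 ratios of 1.59 and 0.56. Its 4 somite ratio was 0.60 without cells with Epcam, Kdr, Pecam1 or Foxa2 and 0.97 in cells with Xist reads, and its 6 somite ratio was 1.94 in cells with Xist reads. Bbc3 (Puma), its p53-dependent relative, was low in both classes, at 7.27 CPM in members and 6.39 CPM in Fos/Egr1-low cells at 4 somites and 5.54 and 2.98 CPM at 6 somites.

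Among p53 and its targets, 7 of 27 were at least 2-fold higher and 1 lower at 4 somites, and 4 of 26 higher and 3 lower at 6 somites, with medians of 0.09 and 0.30. Of all measured genes, 4.39% were that much higher and 3.47% that much lower at 4 somites. The same shares at 6 somites were 6.09% and 4.06%. Btg2, an immediate early gene itself, was the 1 gene of the p53 list that was higher at both stages. Trp53 summed to 336.9 CPM in members and 380 CPM in Fos/Egr1-low cells at 4 somites and to 305.6 and 330 CPM at 6 somites (log2 ratios −0.17 and −0.11). Mdm2, the p53 ubiquitin ligase and target, gave ratios of 0.63 and 0.26, and the cell cycle inhibitor Cdkn1a, at 8.61 CPM in members and 1.82 CPM in Fos/Egr1-low cells at 4 somites and 4.03 and 5.82 CPM at 6 somites, 2.24 and −0.53.

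**Figure D3:**
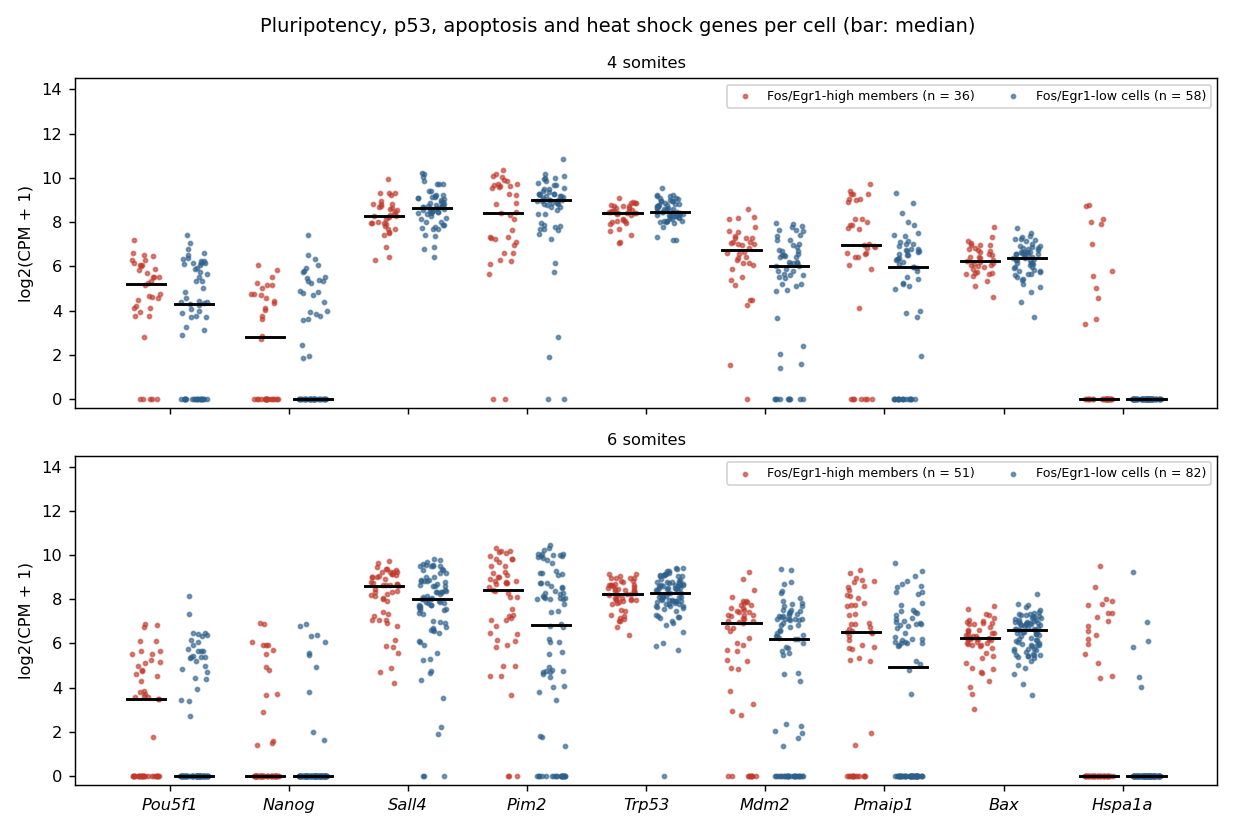
Levels of 9 pluripotency, p53, apoptosis and heat shock genes in each cell, as log2(CPM + 1), at 4 somites (top) and 6 somites (bottom), with Fos/Egr1-high members (red) left of Fos/Egr1-low cells (blue) and medians as black bars. The 2 classes overlap for every gene shown. Hspa1a is at 0 in most members and in nearly all Fos/Egr1-low cells, and Pmaip1 has medians of 122.8 CPM in members and 61.4 CPM in Fos/Egr1-low cells at 4 somites.

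The labelled cell type is cranial neural crest. The crest markers Sox10 and Foxd3 were each under 20 CPM in most cells of either class. The 22 listed crest genes, among them Pax3, were present as a group. At 4 somites they summed to a median of 981.2 CPM per member and 473.7 CPM per Fos/Egr1-low cell. At 6 somites these medians were 596.5 and 535.5 CPM. At least 20 CPM of Foxd3 was found in 5 of 36 members and 4 of 58 Fos/Egr1-low cells at 4 somites. The counts at 6 somites were 2 of 51 and 6 of 82. At least 20 CPM of Sox10, the defining marker of migrating crest, was present in 2 of 36 members and 4 of 58 Fos/Egr1-low cells at 4 somites and in 2 of 51 members and 7 of 82 Fos/Egr1-low cells at 6 somites. Sox2 reached that level in 27 of 36 members and 42 of 58 Fos/Egr1-low cells at 4 somites, and in 32 of 51 members and 38 of 82 Fos/Egr1-low cells at 6 somites. The neural plate border gene Pax3 did so in 14 of 36 members and 17 of 58 Fos/Egr1-low cells, and at 6 somites in 17 of 51 members and 21 of 82 Fos/Egr1-low cells. Of 12 measured neural crest genes at 4 somites, 7 were at least 2-fold higher in members and 0 lower (median 1.05), and of 15 at 6 somites 2 were higher and 5 lower (median −0.28). The 4 somite crest median was −0.0034 within cells with Y-linked reads and 1.83 within cells with Xist reads. Without cells with Epcam, Kdr, Pecam1 or Foxa2, 1 of 8 crest genes measured at 4 somites was at least 2-fold higher and 1 lower (median 0.52), and with the mean of per-cell CPM 4 of 12 were higher (median 0.85). At 6 somites the crest median was 1.47 within cells with Xist reads and −0.59 within cells with Y-linked reads. Leaving out cells with Sox10, Twist1 or Alx1, a choice by crest markers, turned the 6 somite median to 1.25. In that setting 6 of 11 measured crest genes were at least 2-fold higher and 0 lower, where 6.45% of all measured genes were that much higher. With a minimum of 20 CPM, 0 of 5 crest genes measured at 6 somites passed 2-fold in either direction. In all cells, those lower at 6 somites included Sox10 (−2.54), Sox5 (−1.68) and Tfap2b (−1.53). Ngfr, with 0 reads in members, stood at −6.62 at most, against a floor of 3 reads over the class. The 2 higher there, Pax7 and Msx1, were also higher at 4 somites, with log2 ratios of 2.01 and 3.10 for Pax7 and 1.09 and 1.24 for Msx1. Under the plate number with the most 6 somite cells 0 of 18 measured crest genes were higher and 8 lower (median −0.55), and Msx1 stood at −0.37.

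Markers of other cell types were present in both classes. Surface ectoderm and placode genes, 18 in the list, summed to 0, 335.01 and 1464 CPM per member (lowest, median and highest) and 0, 325.1 and 6054 CPM per Fos/Egr1-low cell at 4 somites, and to 0, 200 and 5343 CPM and 0, 160 and 11323 CPM at 6 somites. Of 13 measured at 4 somites, 1 was at least 2-fold higher in members and 6 were lower, and of 14 measured at 6 somites, 1 was higher and 3 were lower. Epcam reached 20 CPM in 22 of 36 members and 33 of 58 Fos/Egr1-low cells at 4 somites and in 22 of 51 members and 27 of 82 Fos/Egr1-low cells at 6 somites, and gave log2 ratios of −1.17 and 0.19. The 13 endothelial and blood genes had a median of 0 CPM in each class, with highest sums of 184.2 CPM in members and 680 CPM in Fos/Egr1-low cells at 4 somites and 2586 and 5316 CPM at 6 somites. The globins and Ptprc were at 0 in every class. Kdr, an endothelial receptor, reached 20 CPM in 4 of 36 members and 6 of 58 Fos/Egr1-low cells at 4 somites and in 1 of 51 members and 8 of 82 Fos/Egr1-low cells at 6 somites, and its log2 ratios of −1.60 and −1.62 came from few cells. Leaving out cells with Epcam, Kdr, Pecam1 or Foxa2 left 9 members and 20 Fos/Egr1-low cells at 4 somites and 26 and 43 at 6 somites. In those cells 4 of 5 measured AP-1 genes besides Fos were at least 2-fold higher at 4 somites and 5 of 5 at 6 somites, where 12.3% and 9.68% of all measured genes were that much higher. The AP-1 median without Fos was 1.56 there at 4 somites, against 4.76 in all cells, and 3.30 at 6 somites.

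Alx1, a homeobox gene of frontonasal crest mesenchyme, was among the 37 genes lower in members at both stages, with 2.41 CPM in members and 39.8 CPM in Fos/Egr1-low cells at 4 somites and 8.35 and 33.9 CPM at 6 somites (log2 ratios −4.03 and −2.02). A single Fos/Egr1-low cell reached 1843 CPM at 4 somites and 2087 CPM at 6 somites. Other genes lower at both stages included the epithelial splicing factor Esrp1 (−1.23 and −1.62) and the claudin Cldn7 (−2.18 and −1.06). Under the plate number with the most 6 somite cells Esrp1 stood at 1.52 and Cldn7 at 0.30, opposite in sign. None of the 37 met the rule for named genes.

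Lists of general programmes had medians under 2-fold in either direction. The median log2 ratio was 0.07 and 0.09 for 40 S phase genes, −0.26 and −0.05 for 51 measured G2M genes, −0.05 and −0.13 for 33 ribosomal protein genes and 0.01 and −0.05 for 14 housekeeping genes, at 4 and 6 somites. None of the 51 G2M, 33 ribosomal or 14 housekeeping genes passed 2-fold in either direction, and 1 of 40 S phase genes was that much higher at each stage. At 4 somites the G2M list summed to a median of 10062.1 CPM per member and 12529.5 CPM per Fos/Egr1-low cell. The S phase list went the other way there, with medians of 14721.4 and 12901.4 CPM. These differences were not tested. SRF targets of the cytoskeleton, which share their regulator with Fos and Egr1, stood at medians of −0.07 and 0.08.

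**Figure D4:**
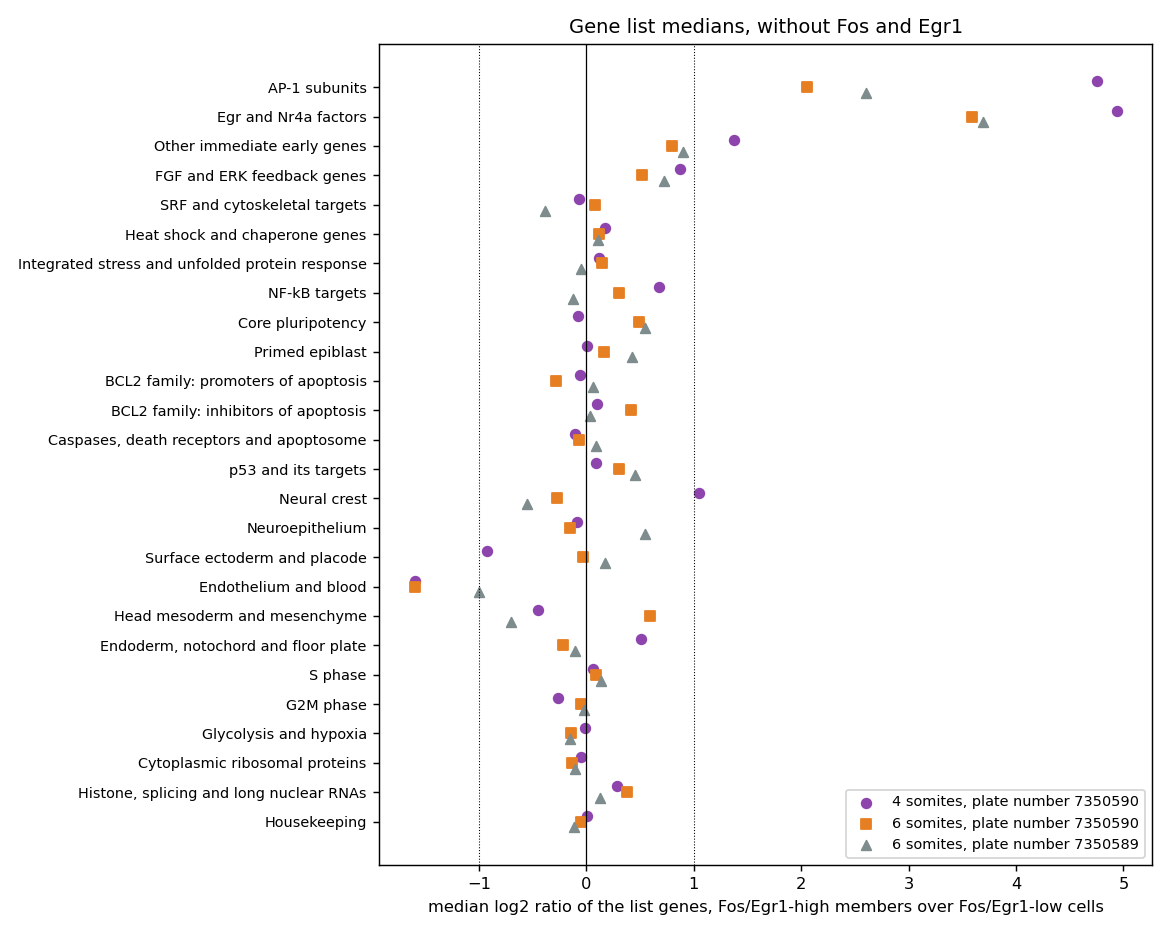
Median log2 ratio (Fos/Egr1-high members over Fos/Egr1-low cells, horizontal axis) of the measured genes of 26 lists, leaving out Fos and Egr1. Circles are 4 somites and squares 6 somites of the shared plate number, and triangles 6 somites of another plate number, which holds the most 6 somite cells; dotted lines mark 2-fold. The AP-1 list lies at 4.76 and 2.05 and the Egr and Nr4a list at 4.94 and 3.59, while the ribosomal and housekeeping lists lie near 0.

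Among the members, the 11 plotted immediate early genes besides Fos and Egr1 gave 55 pairs. Spearman's rho over 36 cells at 4 somites ran from −0.14 to 0.55 over these pairs, with a median of 0.19, and over 51 cells at 6 somites from −0.20 to 0.42, with a median of 0.09. Fos itself was truncated by the rule. Its rho was 0.41 and 0.33 with Egr1, 0.58 and 0.27 with Nr4a1, 0.51 and 0.29 with Cyr61, 0.51 and −0.02 with Junb, 0.23 and 0.03 with Jun, and −0.05 and 0.06 with Pou5f1. Fos and the cell's total reads had a rho of 0.10 and −0.10, and Fos and the number of genes −0.28 and 0.05. These are descriptions across cells that share a plate number.

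Cells that met the same rule under other plate numbers were unevenly spread. Of 6 somite cells, 50 met it under the plate number with the most cells of that stage (13.4%, 10.1 to 17.3%), 4 of 72 under another (5.56%), 0 under the one with the second most, where the upper exact limit was 1.94%, and 0 of 22 under the remaining one. Of 4 somite cells under their other plate number, 1 of 92 met it (1.09%, 0.0275 to 5.91%). At 8 somites 2 cells (0.943%) and 0 of 15 met it, and at 10 somites 5 of 55, 8 cells (2.11%) and 0 of 12. The 6 somite shares ran from 0% to the 28.3% of the shared plate number, and the differences were not tested. The intervals treat cells as single draws and do not measure the spread between embryos or plate numbers. A plate number and the embryos on it cannot be told apart.

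**Figure D5:**
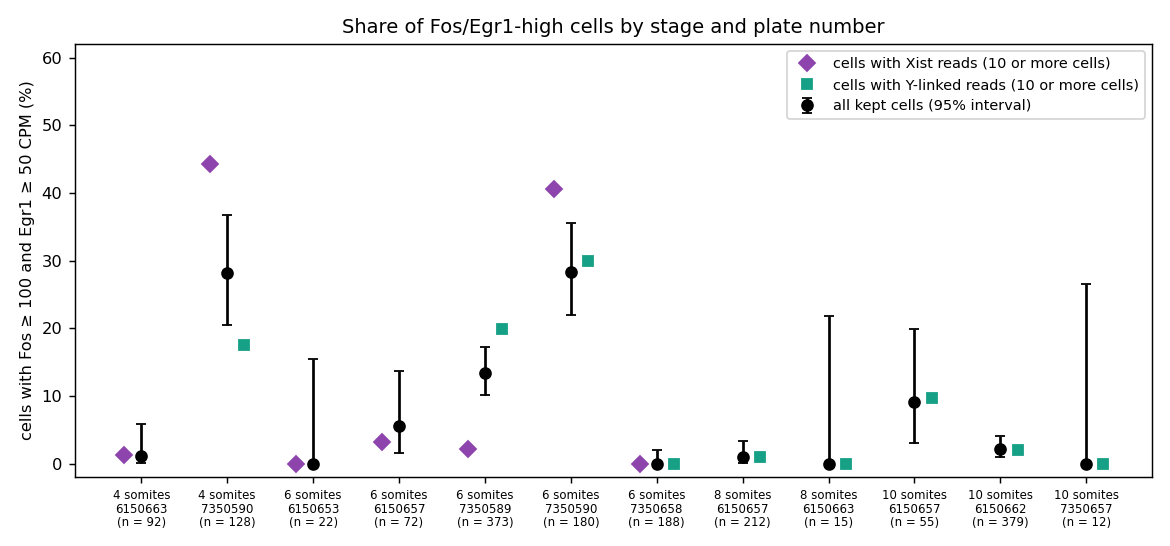
Percent of kept cells with at least 100 CPM of Fos and 50 CPM of Egr1 (vertical axis) for each stage and plate number, with the number of kept cells below. Black points are all cells with exact 95% intervals, purple diamonds cells with Xist reads and green squares cells with Y-linked reads, each drawn where there were at least 10 such cells. The 4 and 6 somite cells of the shared plate number stand at 28.1% and 28.3%, above the points of all cells elsewhere.

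The plate number with the most 6 somite cells gives the same comparison in other cells, between its 50 cells that met the rule and its Fos/Egr1-low cells. Of 9822 genes measured there, 4.32% were at least 2-fold higher and 3.18% at least 2-fold lower. Of the 18 genes singled out above besides Fos and Egr1, 18 had a ratio above 0 there and 14 were at least 2-fold higher. The 4 below 2-fold were Erdr1, Gas5, Kmt5b and Btg1. Of the genes higher in both stages, leaving out Fos and Egr1, 90 were measured there, 77 had a ratio above 0 and 44 were at least 2-fold higher (48.9%). Of the 37 lower genes 31 were measured, 18 had a ratio below 0 (58.1%) and 6 were at least 2-fold lower (19.4%). The median of all genes measured there was 0.016, so a ratio below 0 alone says little about these genes.

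Among single genes, Jun came to 350.9 CPM in members and 26.1 CPM in Fos/Egr1-low cells under that plate number (log2 ratio 3.75), Nr4a1 to 155.4 CPM in members and 7.78 CPM in Fos/Egr1-low cells (4.32), and Hspa1a to 103.7 and 4.49 CPM (4.53). Pmaip1 came to 181.3 CPM in members and 30.4 CPM in Fos/Egr1-low cells there (2.58), and Pou5f1 to 12.8 and 7.26 CPM (0.82). Nanog was at 4.75 and 1.29 CPM (1.88) and Dusp6 at 187.9 and 105.9 CPM (0.83). The core pluripotency list had 2 of 8 genes at least 2-fold higher and a median of 0.54 there, and the p53 list 6 of 27 higher, 0 lower and a median of 0.45.

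Cells with Xist reads made up a larger share of members than of Fos/Egr1-low cells at both stages. Cells with at least 10 Xist reads and under 10 Y-linked reads were 23 of 36 members and 16 of 58 Fos/Egr1-low cells at 4 somites, and 13 of 51 members and 6 of 82 Fos/Egr1-low cells at 6 somites. Cells with Y-linked reads alone were 10 of 36 members and 29 of 58 Fos/Egr1-low cells at 4 somites (27.8% and 50%). At 6 somites they were 35 of 51 and 55 of 82, which are similar shares (68.6% and 67.1%). The cells left, with neither or both kinds of reads, were 3 of 36 members and 13 of 58 Fos/Egr1-low cells at 4 somites. At 6 somites these were 3 of 51 and 21 of 82. Xist itself was higher in members by log2 ratios of 1.23 and 1.501. Within cells with Y-linked reads, 6 of 6 measured AP-1 genes besides Fos were at least 2-fold higher at 4 somites, and 4 of 6 were higher and 1 lower at 6 somites, where 9.37% and 7.39% of all measured genes were that much higher. Within cells with Xist reads 6 of 6 and 5 of 5 were higher, where 7.76% and 19.9% of all measured genes were. Of the 18 genes singled out above in these same cells, 15 at 4 somites and 13 at 6 somites were at least 2-fold higher within each of the 2 sets of cells, which is no separate support for them.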

How the data were processed

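Single sorted cells were sequenced with Smart-Seq2, and the authors deposited a table of counts, whole reads per gene and cell without normalization, per the values and per the labels' protocols. Per the submitters' processing notes, the mm10 build was used with STAR 2.6 and bcl2fastq 2.18. The read counter, the annotation and the treatment of multiply mapped reads are not named there. There were 24920 genes, 92 spike-ins and 1778 cells. Stage came from the labels. The meaning of the 7-digit plate number in each title is not stated.

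Cells were kept with at least 50000 reads outside spike-ins and at least 1500 genes, which left out 15 cells of 4 somites and 12 of 6 somites under the shared plate number. No doublet caller was run, since cells were sorted singly. Class sums were scaled to CPM outside spike-ins and Rn45s, 0.5 reads were added for log2 ratios, and a class at 0 was set to 3 reads. Shares used cells thinned to 50000 reads. The genes named were 32 fixed by name, the 12 with the largest smaller ratio of the 2 stages among those at least 2-fold, at 50 CPM and with a read in 50% of cells of the higher class in both, and up to 4 per list with the largest mean ratio at 20 CPM or more. Not eligible were sex-linked markers, mitochondrial and ribosomal genes, pseudogenes and gene models without a name. Others named were chosen after their values were seen. The members, 26 gene lists, motifs and tests were chosen with earlier results of these data known. edgeR 4.0.16 and DESeq2 1.42.0 gave scaling factors for alternatives alone. Python 3.11.15 with scipy 1.17.1 was used, and the log2 ratio was checked on simulated classes of 4 somite cells. The choice of members, the lists, the motif search and the alternatives were not checked on simulated data. Promoters are RefSeq, GRCm38.p6, and gene positions GENCODE vM21, neither known to be the authors' annotation.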

Additional observations from a re-analysis of the deposited data

Results flagged for a closer look

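The share of members among cells with Xist reads minus that among cells with Y-linked reads had opposite signs under 2 plate numbers, and the difference was not tested. Under the plate number shared by 4 and 6 somite cells it was 26.7 percentage points at 4 somites (44.2%, interval 30.5 to 58.7%, of cells with Xist reads, and 17.5%, 8.75 to 29.9%, of cells with Y-linked reads). At 6 somites it was 10.7 points there (40.6%, 23.7 to 59.4%, and 29.9%, 21.8 to 39.1%). Under the plate number with the most 6 somite cells it was −17.7 points (2.15%, 0.262 to 7.55%, and 19.8%, 14.9 to 25.5%). The labels name no embryo, so sex and embryo cannot be told apart.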

How the results depend on the processing

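No paired analysis was possible because cells carry no replicate number that pairs them and no test was made. Of the genes measured, 4.39% were at least 2-fold higher and 3.47% lower in members at 4 somites, and 6.09% and 4.06% at 6 somites. With no minimum level these were 12.9% and 12.3%, and 14.4% and 13.4%. With a minimum of 20 CPM they were 1.87% and 0.920%, and 2.82% and 1.18%. Without cells with Epcam, Kdr, Pecam1 or Foxa2 they were 12.3% and 11.5%, and 9.68% and 7.49%. In cells with Xist reads, an alternative chosen after seeing the data, they were 7.76% and 9.04%, and 19.9% and 16.4%. In cells with Y-linked reads, likewise added, they were 9.37% and 9.25% at 4 somites, and 6.395% lower at 6 somites. With Rn45s in the totals the lower genes were 1.49% and 1.30%, and the median gene stood at 0.09 and 0.15. Without the highest cell of each class the higher genes were 48.5% and 50.3% of all past 2-fold. Settings with fewer cells give more genes past 2-fold by their construction; the cause of other shifts was not tested. Lists with a median at least 2-fold higher at both stages were 2, also with Fos and Egr1 left out of the lists (an alternative chosen after seeing the data), and 4 in cells with Xist reads.

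The member share was 20.3% and 18.9% with Fos at 200 and Egr1 at 100 CPM, 36.7% at 6 somites with 50 and 25 CPM, and 19.4% at 6 somites with Rn45s in the totals. Of the 18 named genes besides Fos and Egr1, 15 to 18 at 4 somites and 13 to 18 at 6 somites passed 2-fold over 18 alternatives, and all 18 kept a ratio above 0 at both stages in each but the cells with Xist reads, with 17.

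Log2 ratios changed sign for single genes: Fadd at 4 somites was 0.22, Ei24 at 6 somites 0.36, and Xist −0.23 and −0.40, in cells with Xist reads; Pax8 at 4 somites was −4.68 and Zfp36 at 6 somites −0.015 in cells with Y-linked reads. Without cells with Epcam, Kdr, Pecam1 or Foxa2, Pax8 was −2.82, Krt8 0.72 and Kdr 1.76 at 4 somites, and Kdr was 0.60 with Fos at 50 and Egr1 at 25 CPM. Without cells with Sox10, Twist1 or Alx1, Alx1 was 2.29 at 4 somites and Sox10 2.27 at 6 somites, by construction. At 4 somites the endothelial median was 3.23 with the lower thresholds and the neural crest median −0.0034 in cells with Y-linked reads; the cause was not tested. With 36 to 82 cells a class, genes read in few cells rest on those cells.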

Other observations

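Some genes outside the lists, chosen after their values were seen, were at least 2-fold higher in members at both stages. Hist1h2bc, a replication-dependent histone gene, gave 3.14 and 3.03, and 3.92 under that plate number. Bdnf, a neurotrophin gene whose transcription depends on activity in neurons, gave 1.56 and 1.33, and 2.16 there.

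At 10 somites few cells met the rule, 5 under 1 plate number and 8 under another. Of the surface ectoderm and placode list, 15 of 15 and 12 of 14 measured genes stood at least 2-fold above the Fos/Egr1-low cells, with median log2 ratios of 4.41 and 4.36, where 16.6% and 20.5% of all measured genes were that much higher. Other lists were high there too. Under the first, 13 of 18 neuroepithelial genes were at least 2-fold higher (median 1.99), and under the other 7 of 7 endothelial and blood genes (3.57) and 4 of 4 genes of endoderm, notochord and floor plate (3.73). Epcam stood at 85.3 CPM in the members and 3.99 CPM in the Fos/Egr1-low cells under the first, and at 154.8 and 15.4 CPM under the other. Sox10 stood at 63.6 CPM in the members and 288.9 CPM in the Fos/Egr1-low cells under the first, and at 106.1 and 305.5 CPM under the other. The AP-1 list's median without Fos was 2.36 and 3.53 there. Of the Egr and Nr4a list without Egr1, 3 of 5 measured genes were at least 2-fold higher and 2 lower under the first (median 1.67). Under the other, 3 of 5 were higher and 1 lower (1.95).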
